A study of Homo sapiens with 12 samples.

Results

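The balance of 5-hydroxymethylcytosine (5hmC) against 5-methylcytosine (5mC) was described in undifferentiated HL-60, an established human promyelocytic leukemia line. Regions listed for both marks were joined wherever they overlapped by 1 base or more, and each connected group of regions was treated as 1 unit. The joining gave 43990 units from 46865 of the 327931 5hmC regions with counts (14.3%) and 44416 of the 65535 5mC regions (67.8%); together the tables held 393466 regions. Of the units, 41258 held exactly 1 region of each mark. Viable cells negative for CD11b were sorted from untreated cultures, and DNA of 3 biological replicates was split between an antibody against 5mC (MeDIP) and one against 5hmC (hMeDIP), giving 6 libraries. The series also holds 6 libraries of CD11b-positive cells grown with 1.5% DMSO (211 mM), which are used here only for values set side by side. All cells are of 1 cultured line, and no input library was analysed here.

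DNA methyltransferases write 5mC, mostly at CpG dinucleotides: DNMT3A and DNMT3B set new marks and DNMT1, guided by UHRF1, copies them when DNA is replicated. TET enzymes oxidise 5mC to 5hmC, which can be diluted by replication or oxidised further and removed by base excision, with TDG as a glycosylase of that route. In most differentiated tissues 5hmC is found in gene bodies and enhancers, CpG islands at active promoters carry little of either mark, and many repeats carry dense 5mC.

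The ratio rests on antibody capture, so it compares loci with each other and gives no percentage of modified cytosines. Each library was scaled to CPM, the counts for every 1e6 counts, of its own table, and the log2 ratio of a unit was log2 of (5hmC CPM + 0.1) over (5mC CPM + 0.1). The 5hmC tables held 33693880, 18886675 and 15688562 counts in replicates 1, 2 and 3, of which 37.0%, 37.0% and 38.5% fell in units. The 5mC tables held 6851769, 6076100 and 6306580 counts, of which 86.9%, 87.1% and 86.7% fell in units. The 5mC table lists only regions with low deposited edgeR p-values between the states (largest 0.0165, and 0.0826 adjusted), against no such limit for 5hmC. Whether the authors chose this limit is not known, since the 65535 regions match a spreadsheet row limit at which the 5mC table may have been cut. Its totals are therefore not library depths, and the absolute size of the ratio has no meaning. Ratios below are read relative to the median unit.

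A pair of promoters from each end of the ratio is printed below as an example of sequence. The stretches are placed on GRCh38 and the units on hg19, and whether each stretch lies inside its unit was not checked. Whether a stretch carries either mark was not tested. The lines give the 250 bases before the annotated start of each gene on its own strand, from RefSeq on GRCh38.p14, with every CpG, the dinucleotide on which both marks mainly sit, in capitals. The units hold a gene start by the deposited distance, have a gene matched to the RefSeq table and come from near the ends of the ratio. They are not its full extremes and were chosen after their values were seen. Other units that hold a gene start, some of them lower, such as that of BIRC5 (-3.71), are not shown. POTEH (-3.28), of a family of near-identical copies, and CLSTN3 (3.09) were left out of the lines.
TDRD9: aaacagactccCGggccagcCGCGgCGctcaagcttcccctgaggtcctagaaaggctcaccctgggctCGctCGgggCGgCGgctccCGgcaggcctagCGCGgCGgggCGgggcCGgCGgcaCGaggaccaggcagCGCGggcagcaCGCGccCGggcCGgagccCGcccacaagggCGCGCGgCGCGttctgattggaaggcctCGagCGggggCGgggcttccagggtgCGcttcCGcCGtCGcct
HIST1H4F: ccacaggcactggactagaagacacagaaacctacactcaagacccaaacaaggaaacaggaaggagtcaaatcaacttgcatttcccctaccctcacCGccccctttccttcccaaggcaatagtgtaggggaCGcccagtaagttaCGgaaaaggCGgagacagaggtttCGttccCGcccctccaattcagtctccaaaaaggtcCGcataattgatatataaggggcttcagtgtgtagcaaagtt
PALM3: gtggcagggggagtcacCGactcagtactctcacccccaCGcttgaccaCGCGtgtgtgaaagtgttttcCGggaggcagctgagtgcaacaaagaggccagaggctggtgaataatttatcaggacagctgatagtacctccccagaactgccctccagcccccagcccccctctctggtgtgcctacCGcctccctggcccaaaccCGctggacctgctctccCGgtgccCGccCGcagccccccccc
IL11RA: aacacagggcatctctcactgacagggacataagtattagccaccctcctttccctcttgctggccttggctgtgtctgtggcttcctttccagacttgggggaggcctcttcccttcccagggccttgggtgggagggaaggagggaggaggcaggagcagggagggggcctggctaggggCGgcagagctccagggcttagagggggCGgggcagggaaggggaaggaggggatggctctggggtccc

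TDRD9, a germline gene of transposon silencing, has 35 CpG in this stretch, and HIST1H4F, a replication-dependent histone H4 gene now named H4C6, has 7. PALM3, of the paralemmin family, has 10 and IL11RA, the interleukin 11 receptor subunit, has 2. Over all 27305 promoters of the table, 42.7% held 15 CpG or more and 35% held 4 or fewer. Among promoter units matched to them, the median ratio relative to the median unit was -0.033 with 4 CpG or fewer (176 units). It was -0.252 with 5 to 14 CpG (260 units) and -0.25 with 15 or more (493 units). Per kb these medians were 0.078, -0.109 and -0.091. The TDRD9 unit (chromosome 14, 104392601 to 104396800, hg19, over a CpG island) held 1.93, 2.17 and 1.66 CPM of 5hmC against 41.2, 34.6 and 37.6 CPM of 5mC in replicates 1, 2 and 3. The PALM3 unit (chromosome 19, 14168801 to 14170000, in an island shore) held 13.1, 12.0 and 14.5 CPM of 5hmC against 5.25, 3.46 and 4.28 CPM of 5mC. So the TDRD9 and PALM3 units lay on opposite sides of the median unit in every replicate, which their choice from the ends of the ratio made likely. The log2 ratio relative to the bulk was -2.86 at TDRD9 and 3.02 at PALM3 (SE 0.136 and 0.149; Benjamini-Hochberg adjusted p = 5.55e-51 and 8.05e-49, quasi-likelihood test of edgeR). HIST1H4F stood at -2.99 and IL11RA at 3.20 by the same fit. Over all 4 units of the TDRD9 gene the ratio was -0.42, so the promoter unit stood apart from the gene. The covered lengths differed by more than 1.25 times in 3 of the 4 units: 5hmC covered 0.8 kb of the TDRD9 unit against 4.2 kb for 5mC, 0.4 against 3.4 kb at HIST1H4F and 3.0 against 0.6 kb at IL11RA, but 1.2 against 1.0 kb at PALM3. Per kb of covered length, relative to the median unit, the ratio was -0.53 at TDRD9, -0.03 at HIST1H4F, 2.67 at PALM3 and 0.82 at IL11RA. Because covered length moved with the ratio at such units, values per kb are given beside the results in which the scales part.

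Over the 43989 nuclear units, the median 5hmC to 5mC ratio of file CPM was 0.394, 0.373 and 0.374 in replicates 1, 2 and 3. The log2 ratio of a unit was reproducible: its Pearson correlation across units was 0.895 to 0.912 between replicates, and its SD over the 3 replicates had a median of 0.257, against an SD of 1.04 over units. These correlations are across units, which are not independent replicates. The levels of the marks correlated at 0.558 across units by CPM and at 0.345 by CPM per kb, values that share width and copy number. Tested with TMM scaling, which places the bulk of units at 0, 5hmC was relatively higher in 12708 and relatively lower in 13005 of 43988 units, 58.5% in all (28.9% higher, 29.6% lower; edgeR's quasi-likelihood test, Benjamini-Hochberg adjusted p under 0.05, n = 3 libraries per mark). In 5710 units the call came with a difference of 2-fold or more higher and in 5131 with 2-fold or more lower. Because scaling sets the zero, scaling by file totals in place of TMM turned the split into 2853 higher and 38613 lower, and scaling by paired totals into 9178 and 17068.

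CpG islands carried less 5hmC for their 5mC than other loci when whole units were compared. The median log2 ratio of the 1176 island units was -1.91, -1.96 and -1.99 in replicates 1, 2 and 3, and that of the 40503 units outside islands and shores was -1.32, -1.41 and -1.40. The island median was the lower one in each replicate, by 0.58 on average (difference -0.581 ± 0.0189, SD, n = 3; exact sign permutation test, two-sided, p = 0.25, the smallest that 3 replicates allow). Of the island units, 672 (57.1%) had relatively lower and 317 (27.0%) relatively higher 5hmC, against 29.6% and 28.9% of all units. The part of covered length in this difference was not tested beyond the values that follow. In island units 5mC covered a median of 2.2 kb and 5hmC 1.4 kb, whereas both covered 0.8 kb in the units outside. Per kb, islands held 3.11 CPM of 5hmC and 8.80 CPM of 5mC, close to the 3.34 and 8.67 CPM of units outside, and the difference shrank to -0.07. Among units whose covered lengths were within 1.25 times of each other (345 island and 18872 other units), it was -0.22.

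Shores, taken as units within 2 kb of an island, lay between islands and the rest. Their median stood 0.19 below that of units outside (difference -0.190 ± 0.0262, SD, n = 3; -0.11 per kb), and 39.8% of the 2310 shore units were relatively lower in 5hmC. The ratio rose with distance from the nearest island. Relative to the median unit it was -0.562 ± 0.0165 in islands, -0.212 ± 0.0394 within 500 bases, -0.156 ± 0.0157 at 501 to 2000 bases and -0.104 ± 0.00711 at 2001 to 10000 bases. Beyond that it was -0.039 ± 0.00146 up to 50000 bases, 0.097 ± 0.00522 up to 200000 bases and 0.210 ± 0.0162 farther away (SD, n = 3 replicates). By CPM the mean rose at each step, whereas per kb islands themselves (-0.062 ± 0.0452) did not lie below the classes next to them (-0.090 ± 0.0264 and -0.107 ± 0.0146). In the differentiated libraries, whose 5mC regions were picked by how far the states differ, the island difference was -0.684 ± 0.0625 and the shore difference -0.279 ± 0.0248, given here without a test.

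**Figure D1:**
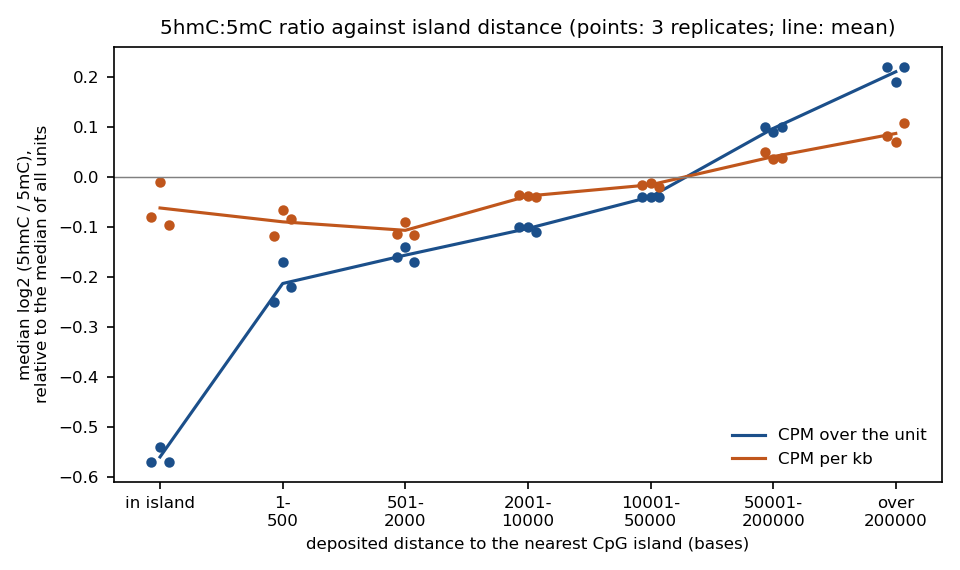
Median log2 ratio of 5hmC to 5mC, relative to the median of all units (y axis), in 7 classes of the deposited distance to a CpG island in bases (x axis), with points for the 3 replicates and lines for their mean. By CPM over the unit the mean climbs from -0.562 in islands to 0.210 beyond 200000 bases, and per kb the range is narrower, from -0.107 to 0.087.

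Position relative to genes moved the ratio less. The 1415 promoter units, with a deposited distance to a gene start of at most 1 kb, stood 0.154 below the 21033 gene-body units (difference -0.154 ± 0.0406, SD, n = 3; -0.04 per kb), and the 21541 intergenic units stood 0.125 above gene bodies (0.125 ± 0.00329; 0.06 per kb). Relatively higher 5hmC was called in 32.3% of intergenic, 25.3% of gene-body and 29.3% of promoter units, against 28.9% of all units. Relatively lower 5hmC was called in 26.6%, 31.7% and 44.1% of them, against 29.6% of all units. Promoters over islands (314 units, -0.437 ± 0.0450) had a lower median than promoters away from islands and shores (555 units, -0.026 ± 0.0480), so within promoters the island class went with the ratio. In the differentiated libraries the promoter difference was -0.232 ± 0.0350 and the intergenic difference 0.179 ± 0.00997. All these differences had the same sign in each of 3 replicates, and 0.25 is again the smallest p that the exact sign permutation test can give.

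**Figure D2:**
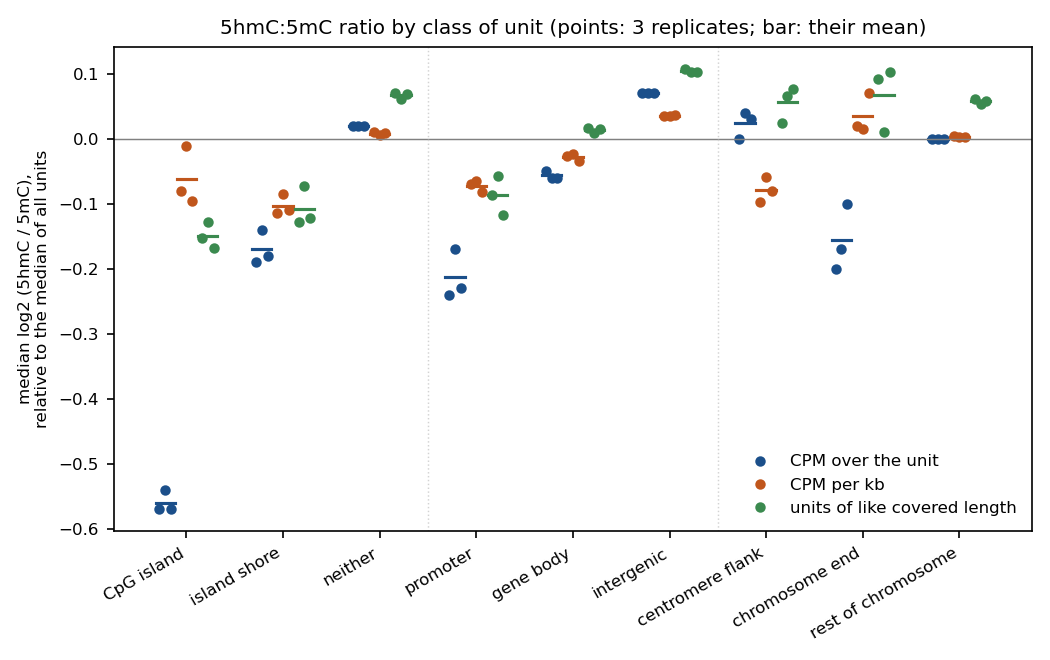
Median log2 ratio of 5hmC to 5mC relative to the median of all units (y axis) for 9 classes of unit (x axis), in 3 groupings parted by dotted lines. Points are the 3 replicates and bars their means; blue is CPM over the unit, orange CPM per kb of covered length and green the units with like covered lengths. The island class falls to -0.562 by CPM and to -0.062 per kb.

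The 5mC list mixes opposite kinds of locus, and the spread of the ratio differed between them. In 28849 units the authors' deposited fold change gave more 5mC in undifferentiated cells, and the fitted log2 ratio ran from -1.04 (5th percentile) to 0.88 (95th). In the 15140 units with less 5mC in undifferentiated cells it ran from -2.20 to 3.04. The first class made up 65.6% of all units but 16.8% of island units. Within the first class alone the island difference was -0.31, and within the second it was -0.89. Since the 5mC libraries of undifferentiated cells enter both the ratio and that selection, no test was made.

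At gene level, counts of units in a gene body or up to 5 kb before its start were summed. Among 10608 genes, 5hmC was relatively higher in 3523 and relatively lower in 3364, 64.9% in all (33.2% higher, 31.7% lower; quasi-likelihood test of edgeR, Benjamini-Hochberg adjusted). Of these genes 5225 had a single unit. The change was 2-fold or more in 1220 genes that were higher and 909 that were lower.

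The 10 genes with the highest ratio each rest on 1 unit, and none of those units lies over an island. CAMK2B, the beta subunit of calcium/calmodulin-dependent kinase II, held 24.2, 22.8 and 27.5 CPM of 5hmC against 3.36, 5.76 and 4.28 CPM of 5mC at 1 unit (chromosome 7, 44367801 to 44368400). By CPM of the files, whose scaling sets the order of the marks, every 5hmC library lay above every 5mC library there. The 5hmC level of the median unit was below its 5mC level on that scale. The choice of the gene for its extreme ratio made such a parting likely. The log2 ratio relative to the bulk was 4.0 (SE 0.122, adjusted p = 2.77e-60 in edgeR's quasi-likelihood fit), and 3.29 per kb. BPIFB4, of the bactericidal/permeability-increasing protein family, reached 4.14 with 16.7, 13.7 and 18.9 CPM of 5hmC against 3.21, 2.30 and 2.38 CPM of 5mC. TNNT3, the fast skeletal troponin T, stood at 3.90, BCMO1, which cleaves beta-carotene, at 3.84 and SGPP2, a phosphatase of sphingosine 1-phosphate, at 3.77. SIRT6, a nuclear deacetylase, and ANKRD24 shared 1 unit at 3.92. C19orf81, TMEM211 and LINC00051 completed the 10, at 3.86, 3.81 and 3.77. Covered lengths were within 1.25 times of each other in 4 of the 10 (BCMO1 and LINC00051, at 1.2 kb for both marks, and ANKRD24 with SIRT6), and their ratios per kb were 3.71, 3.64 and 3.46. In 5 of the 10, 5hmC covered at least 2 times the length of 5mC. These were BPIFB4, TNNT3, C19orf81, TMEM211 and SGPP2, with ratios per kb of 3.01, 2.0, 2.21, 2.22 and 1.76.

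The genes with the lowest ratio had 5mC levels of 26.5 CPM or more in every library and, other than SENP5, 5hmC levels of at most 2.43 CPM. SENP5, a SUMO protease, was the strongest: 117, 132 and 104 CPM of 5hmC against 3810, 3810 and 3780 CPM of 5mC, a log2 ratio of -3.48 (SE 0.0780, adjusted p = 9.88e-74 in edgeR's quasi-likelihood fit). One of its 4 units (chromosome 3, 196624601 to 196626200) held 99.3% of these CPM, with 0.8 kb covered by 5hmC and 1.6 kb by 5mC, and the median log2 ratio of the other 3 was -0.31. The 5mC level of the strongest unit was far above the median listed region (8.03, 8.23 and 8.21 CPM per kb in replicates 1, 2 and 3). What set that level, copy number included, was not tested. HRNR, an epidermal protein built of repeats, held 2.43, 2.01 and 1.08 CPM of 5hmC against 69.6, 66.7 and 68.5 CPM of 5mC over an island, a log2 ratio of -3.57 (-2.62 per kb). SUN1, of the nuclear envelope, stood at -3.60, SETMAR, a methyltransferase fused to a transposase, at -3.47, and TXNL4A, a spliceosome component, at -3.37. MIR4297, MIR663B and MIR127 stood at -3.73, -3.33 and -3.20, each over an island; MIR127 shared its unit with RTL1, an imprinted gene derived from a retrotransposon. FAM90A7P (-3.91) and LOC729444 (-3.49) are copies in duplicated sequence, where reads may be split among copies.

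Length separated these low genes from each other. In 8 of the 10, 5hmC covered at most 0.5 times the length of 5mC. Per kb, MIR4297 stood at 0.00, FAM90A7P at -0.52, MIR127 at -0.83 and MIR663B at -0.96. SUN1 stood at -1.23, TXNL4A at -1.63 and SETMAR at -2.37 per kb. LOC729444 stood at -3.47 per kb, with 1.8 kb of 5hmC and 2.0 kb of 5mC. Of the 10 highest genes all 10, and of the 10 lowest 9 (all but SENP5, with 1 of its 4 units), lay wholly in units with less 5mC in undifferentiated than in differentiated cells by the authors' deposited fold change.

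**Figure D3:**
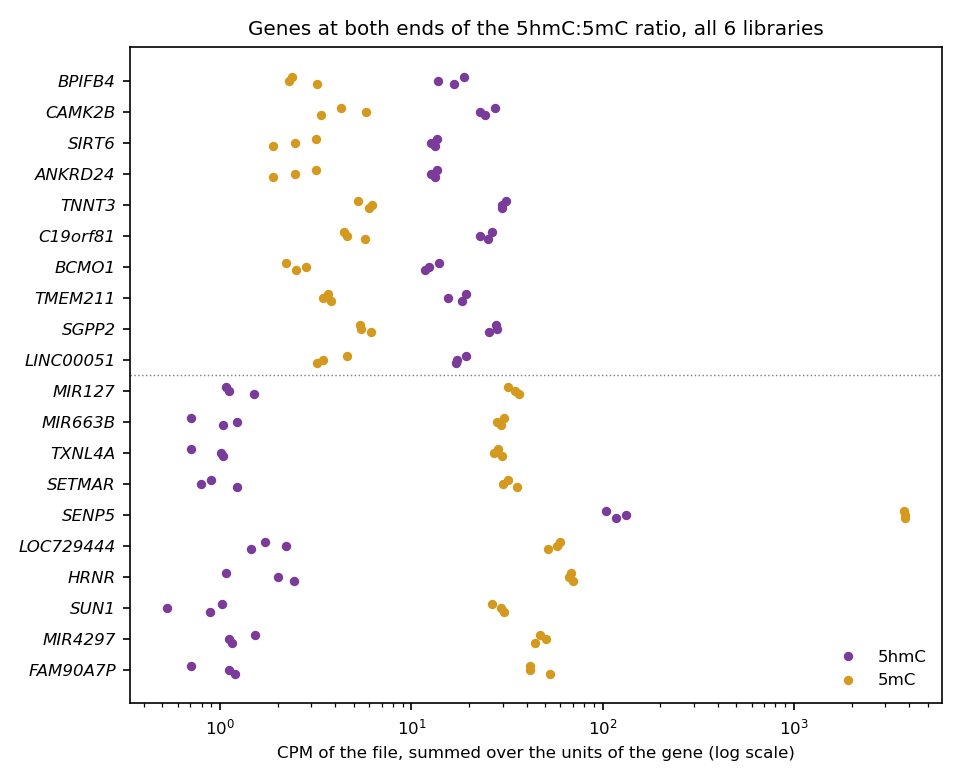
CPM of 5hmC (purple) and 5mC (yellow) in each of the 3 libraries per mark (x axis, log scale) for the 10 genes with the highest and the 10 with the lowest ratio (y axis, parted by a dotted line). On this scale the marks part in all 20 genes, which their choice for extreme ratios made likely. SENP5 holds by far the most 5mC, near 3800 CPM.

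Restricting the choice to genes whose covered lengths were within 1.25 times of each other, a rule set after the values were seen, brought forward further genes. HFM1, a meiotic helicase, held 9.94, 10.2 and 6.12 CPM of 5hmC against 256, 225 and 215 CPM of 5mC, a log2 ratio of -3.16 (SE 0.0839) with 0.8 and 1.0 kb covered. The median listed 5mC region held 8.03, 8.23 and 8.21 CPM per kb in replicates 1, 2 and 3, far below the HFM1 unit. What set its level, copy number included, was not tested. MEX3C, an RNA-binding ubiquitin ligase, stood at -2.0. A 16 kb unit that covers the TCEB3C cluster, elongin copies on chromosome 18, held 137, 148 and 127 CPM of 5hmC against 1460, 1500 and 1460 CPM of 5mC and stood at -1.89. At the other end, PLG, the plasma protein plasminogen, held 23.5, 21.1 and 29.0 CPM of 5hmC against 5.55, 5.27 and 5.39 CPM of 5mC, a log2 ratio of 3.69 (SE 0.119) with 1.0 kb covered by each mark. ELN, which encodes elastin, stood at 3.59, SERPINA9, a serpin of germinal-centre B cells, at 3.76 and BTNL9, a butyrophilin-like gene, at 3.49.

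Of 17 genes of the methylation machinery tested (22 listed), 6 had relatively higher and 6 relatively lower 5hmC, 35.3% each, near the 33.2% and 31.7% of all genes (median -0.12; all genes 0.02). DNMT1 held 11, 11 and 11.1 CPM of 5hmC against 19, 15.8 and 20.1 CPM of 5mC, a log2 ratio of 0.79 (SE 0.101, adjusted p = 9.62e-12 in edgeR's quasi-likelihood fit). DNMT3B held 18.1, 20.2 and 17.3 CPM of 5hmC against 79.7, 70.9 and 78.3 CPM of 5mC and stood at -0.51 (SE 0.0744, adjusted p = 9.15e-10). DNMT3A was at -0.12 and did not pass (adjusted p = 0.148), and among units of 1 region per mark it was at 0.41 (adjusted p = 1.25e-05). Among the TET genes, TET1 stood at 0.64 (adjusted p = 6.07e-10; -0.05 per kb), while TET2 (0.02, adjusted p = 0.862) and TET3 (-0.06, adjusted p = 0.579) did not pass. UHRF1 (-0.81), MBD3 (-0.80), a protein of the NuRD complex, and WT1 (-1.12), a partner of TET2, were lower. DNMT1 and TET1 were on the lower side (-0.73 and -0.89) when libraries were scaled by file totals, as were other named genes given with the alternatives below.

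Long genes of neuronal adhesion and synapses had the highest share of members called higher among the 16 lists. Of 45 tested, 34 had relatively higher and 6 relatively lower 5hmC (75.6% and 13.3%; median 0.51, and 0.53 per kb), against 40.3% and 29.0% of the 1248 genes with 5 or more units (median 0.06). The units were less one-sided than the gene sums: of 578 distinct units 257 were higher and 153 lower (44.5% and 26.5%, against 28.9% and 29.6% of all units), with a median of 0.27. In 4 of the 34 higher genes the median unit was at or below 0, among them DLGAP2 (0.99 by its sum, with 1 unit higher and 4 lower). SORCS2, a sorting receptor of neurons, held 345, 323 and 367 CPM of 5hmC against 221, 229 and 222 CPM of 5mC over 20 units, of which 18 were higher and 2 lower, a log2 ratio of 2.15 (SE 0.0679). RBFOX1, a splicing factor of neurons, stood at 1.70 with 14 of 28 units higher and 7 lower, NTM, an adhesion molecule of the IgLON family, at 1.54 (median unit 0.19) and ADARB2, an RNA-editing enzyme relative, at 1.53. NCAM2, a neural cell adhesion molecule, went the other way at -1.18, as did CNTN4 (-0.67) and CNTN5 (-0.57), both contactins. The list was drawn up with earlier results of these data known, so its direction is not independent evidence.

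HOX genes, which pattern the body axis, and clustered protocadherins, adhesion molecules of neurons, stood at the other end. A unit over an island was held by 7 of 9 and 33 of 36 tested members, against 834 of all 10608 genes. Calls in this paragraph are read against 33.2% higher and 31.7% lower of all genes. Of 9 HOX genes tested of 39 listed, 7 were relatively lower and 1 was higher (HOXD3, 0.46); the list median was -1.16, and -0.79 per kb. HOXA7 held 0.831, 0.794 and 0.765 CPM of 5hmC against 12.0, 14.5 and 14.7 CPM of 5mC, a log2 ratio of -2.55 (SE 0.200). HOXA5 and HOXA6 shared 1 unit at -1.85, and HOXA3 stood at -1.30 with 1.6 and 2.0 kb covered. Of 36 protocadherins tested, 33 were lower and none was higher (median -0.98), but they rest on 11 units because neighbours share them, and per kb their median was 0.27. PCDHB7 shows both scales: 5hmC covered 0.4 kb and 5mC 2.8 kb, and its log2 ratio was -2.49 over the unit and 0.19 per kb. Only 9 distinct units lay behind 11 replication-dependent histone genes, of which 9 were lower and 1 higher (median -1.53, and -0.78 per kb).

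Imprinted genes spread to both ends, with 15 of 26 tested higher and 5 lower (57.7% and 19.2%, against 33.2% and 31.7% of all genes; median 0.41, and 0.17 per kb), while of their 98 units 32 were higher and 33 lower. KCNK9, a potassium channel, held 22.5, 18.5 and 23.3 CPM of 5hmC against 6.42, 6.91 and 5.23 CPM of 5mC (log2 ratio 3.32), and ANO1, a chloride channel, stood at 3.07. RTL1 (-3.20) and MEST (-2.55), a hydrolase expressed from the paternal copy, were the lowest, both over islands. All 7 mucin genes with units, a set looked at after values were seen, were relatively higher in 5hmC (median 1.50, and 1.37 per kb). MUC4 held 246, 236 and 261 CPM of 5hmC against 238, 241 and 227 CPM of 5mC, and its largest unit (chromosome 3, 195499001 to 195516800) held 71.6% of these CPM.

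Lineage lists were small and mixed, and all are read against the 33.2% higher and 31.7% lower of all genes. Among neutrophil maturation genes, 6 of 14 were higher and 2 lower (median 0.27, but 0.06 per kb). NCF4, a cytosolic subunit of the phagocyte oxidase, held 21.8, 19.7 and 22.9 CPM of 5hmC against 10.7, 7.08 and 8.25 CPM of 5mC with 1.6 kb covered by each mark, a log2 ratio of 2.82. ITGB2, the partner chain of CD11b, stood at -1.39 but at 0.06 per kb. Primary granule and progenitor genes gave 4 higher and 2 lower of 11 (median -0.13), with BPI, a granule protein that kills Gram-negative bacteria, at 2.70 and FLT3, a receptor kinase of progenitors, at -0.81. Of 19 myeloid transcription factors 4 were higher and 3 lower (median 0.08, and -0.15 per kb). SPI1, the master factor PU.1, stood at 1.55 over 4 units (87.4, 79.8 and 92.1 CPM of 5hmC against 84.2, 85.4 and 85.1 CPM of 5mC), with 68.8% of these CPM in 1 unit and a median of 0.53 over the other 3. ERG stood at 1.59, with 67.8% of its CPM in 1 unit and a median of 0.11 over the others. With file totals SPI1 (0.03, adjusted p = 0.711), ERG (0.06, 0.453) and NTM (0.01, 0.841) did not pass in edgeR's quasi-likelihood fit. Erythroid and megakaryocyte genes gave 4 higher and 2 lower of 9 (median 0.25, and 0.17 per kb). Lymphoid genes gave 6 and 4 of 14 (median 0.16, but 0.01 per kb). Of their 33 distinct units 5 were higher and 7 lower (15.2% and 21.2%, against 28.9% and 29.6% of all units), with a median of -0.11.

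The remaining lists are read against the same 33.2% higher and 31.7% lower of all genes. Calcium and phospholipase signaling genes gave 18 higher and 10 lower of 40 (45.0% and 25.0%; median 0.11). PRKCA, a protein kinase C, stood at 1.92, with 70.1% of its CPM in 1 of 11 units and a median of 0.13 over the other 10; among units of like covered length it was at 0.11 (adjusted p = 0.326 in edgeR's quasi-likelihood fit). CACNA1I, a T-type calcium channel, stood at 2.42, and at 0.27 when only gene-body regions were counted (adjusted p = 0.285). PI3K, AKT and mTOR genes gave 8 higher and 7 lower of 24 (33.3% and 29.2%, near that share; median -0.07, and 0.15 per kb), MYC and cell-cycle genes 3 and 5 of 17 (median -0.10), and germline and cancer-testis genes 5 and 7 of 22 (median -0.05). Other developmental transcription factors gave 12 and 6 of 24 (median 0.37, but 0.02 per kb). Housekeeping and ribosomal genes gave 2 and 5 of 9 (median -0.56, and -0.42 per kb).

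**Figure D4:**
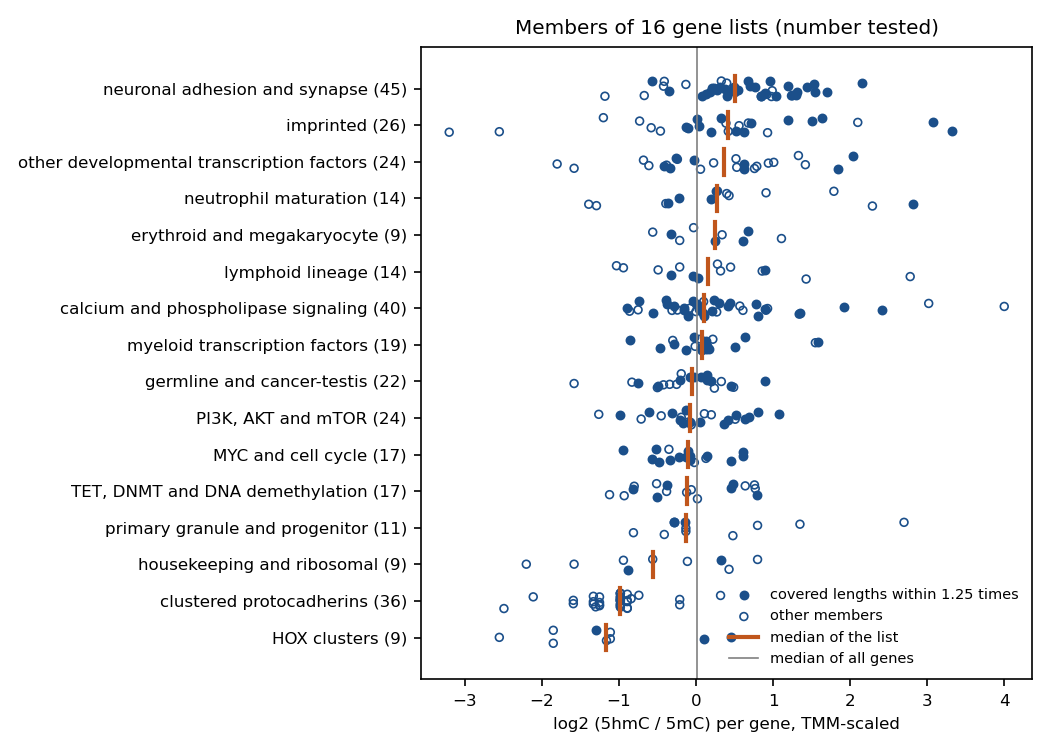
TMM-scaled log2 ratio of 5hmC to 5mC (x axis) of each member of 16 gene lists (y axis, with the number tested), filled where the covered lengths of both marks are within 1.25 times. Orange bars are list medians, from -1.16 for HOX clusters to 0.51 for neuronal adhesion and synapse genes; the grey line is the median of all genes, 0.02. Vertical scatter within a row has no meaning.

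Copy number was not measured here, but the levels at known copy-number changes of the line can be set out. HL-60 is known for extra copies of MYC, the transcription factor of cell growth on chromosome 8, and for a deletion that touches CDKN2A, a cell-cycle inhibitor on chromosome 9. The 5hmC region over MYC held 9.26, 9.24 and 8.47 CPM per kb, where the median listed region held 2.82, 2.82 and 2.71, and the 5mC region held 28.3, 26.6 and 27.9 CPM per kb, where the median was 8.03, 8.23 and 8.21. Both marks stood above the median region in every library. At PVT1, the neighbour of MYC, 5hmC regions held 3.43, 3.42 and 3.63 CPM per kb and 5mC regions 5.86, 5.68 and 5.81, the latter below the median region, and the 45 units of 8q24 around MYC had medians of 3.85 CPM per kb of 5hmC and 9.33 CPM per kb of 5mC. The ratio of the 83.4 kb MYC unit did not pass (log2 ratio -0.08, SE 0.0688, adjusted p = 0.298 in edgeR's quasi-likelihood fit). The call depended on the settings: it was -0.11 with adjusted p = 0.0319 without 5hmC replicate 2, and -0.20 with adjusted p = 0.0167 when only 5mC regions with a deposited adjusted p-value under 0.01 were used. Wider blocks nearby stood at -0.33 (126224401 to 126442800), 0.40 (126710601 to 127192200) and 0.00 (130367001 to 130698200). At CDKN2A 1 region per mark was listed, at 1.85 to 1.98 CPM per kb of 5hmC and 3.47 to 4.10 CPM per kb of 5mC, below the median regions, and at CDKN2B none was listed for either mark.

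The strongest signals lay beside centromeres. The tables carry no repeat annotation, so repeat elements themselves were not analysed here; units within 2 Mb of the longest region-free stretch of each chromosome, on most chromosomes the centromere gap of the assembly, stand in for them. On chromosome Y that stretch lies in the long arm, so blocks beside its centromere count with the rest. The median of these 1372 centromere-flank units differed little from the rest of the chromosomes (0.023 ± 0.0171, SD, n = 3; -0.08 per kb), but 34.9% were relatively lower and 33.8% higher, and the fitted log2 ratio ran from -2.13 to 2.28 (5th to 95th percentile). In the rest of the chromosomes it ran from -1.52 to 2.03, and at chromosome ends from -2.39 to 2.71. The 504 units within 500 kb of chromosome ends stood 0.156 lower than the rest by CPM (-0.156 ± 0.0524) and 0.03 higher per kb.

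A few flank blocks were dominated by 5mC. The block at chromosome 16, 46385801 to 46456600, was the strongest 5mC signal of all units: 98600, 97500 and 98100 CPM of 5mC, against 4340, 4690 and 3930 CPM of 5hmC. Its log2 ratio was -3.07 (SE 0.0741, adjusted p = 3.56e-96 in edgeR's quasi-likelihood fit), with 70.0 and 70.8 kb covered. At chromosome 10, 42596601 to 42602400, 29900, 31500 and 30300 CPM of 5mC faced 892, 1010 and 782 CPM of 5hmC, a log2 ratio of -3.66 with 5.6 and 5.8 kb covered. At these blocks covered length did not part the marks: the ratios per kb were -3.15 and -3.71. In differentiated cells the chromosome 16 block held 8110 ± 635 CPM of 5hmC and 115000 ± 771 CPM of 5mC (SD, n = 3), given without a test.

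Other flank blocks of like strength leaned to 5hmC. At chromosome 4, 49093201 to 49161000, 29000, 29000 and 31900 CPM of 5hmC faced 37600, 39800 and 39300 CPM of 5mC, a log2 ratio of 1.06, and at chromosome 21, 10771401 to 10861000, 10900, 10800 and 11800 CPM faced 12000, 12000 and 11800 CPM, a log2 ratio of 1.34. Another block lay between them, at chromosome 10, 42354801 to 42397400 (-0.80; 12300, 12500 and 13000 CPM of 5hmC against 60000, 58900 and 58500 CPM of 5mC). So blocks of the same class lay on opposite sides of the bulk, with SE of 0.0741 at the chromosome 16 block and 0.0685 and 0.0720 at the blocks of chromosomes 4 and 21. In all, 118 units were 10 kb or wider, of which 45 lay in centromere flanks. The 118 units held 37.3% of the 5hmC and 41.7% of the 5mC counts in units. Of the 118, 61 were relatively lower and 48 higher in 5hmC (51.7% and 40.7%, against 29.6% and 28.9% of all units). Among the 45 in centromere flanks, 21 were lower and 21 higher.

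Smaller flank units marked both ends of the ratio. The lowest besides the chromosome 10 block were a pair near EMBP1 on chromosome 1 (121383401 to 121390600, -4.42, and 121424401 to 121427400, -4.29), with 0.4 kb of 5hmC against 7.2 and 3.0 kb of 5mC and ratios per kb of -0.37 and -1.60. The highest lay near ANKRD20A12P (chromosome 1, 142671601 to 142674600, 4.50; 2.48 per kb), LOC286297 (chromosome 9, 66942401 to 66947800, 4.50; 3.20 per kb) and LOC100130000 (chromosome 1, 143417001 to 143419600, 4.32; 2.53 per kb). The LOC286297 unit held 52.5, 50.9 and 52.1 CPM of 5hmC against 6.71, 5.76 and 6.03 CPM of 5mC. Among island units the lowest lay near LOC286083 (-5.38; 0.742, 1.16 and 0.637 CPM of 5hmC against 93.8, 87.4 and 103 CPM of 5mC), near FAM27C (-4.54; -0.98 per kb) and at RNF213 (-4.22; -1.39 per kb). The highest island units lay at or near CHMP6 (4.48), SSC5D (4.41; 41.0, 39.0 and 44.9 CPM of 5hmC against 4.52, 5.27 and 6.03 CPM of 5mC) and TRPM4 (4.23). Islands thus reached both ends, and the covered lengths at TRPM4 were 4.4 kb of 5hmC and 0.6 kb of 5mC.

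Tandem gene families in duplicated sequence went both ways, and since reads of near-identical copies cannot be assigned, each cluster is read as a block. On chromosome 4, 2 units cover most USP17L deubiquitinase copies, and the 24 USP17L genes, which rest on 4 units in all, were all lower (median -2.31; -1.17 per kb). REXO1L1 and REXO1L2P, of a repeated exonuclease-like cluster, both stood at -1.28, with 69.0 and 69.6 kb covered at REXO1L1. By contrast all 3 PRAMEF genes were higher (median 0.45), 4 of 7 NBPF genes were higher and 2 lower (0.35; -0.57 per kb), and of 11 golgin A genes 5 were higher and 5 lower (0.19). These families were picked after values were seen, and their counts are read against 33.2% higher and 31.7% lower of all genes.

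**Figure D5:**
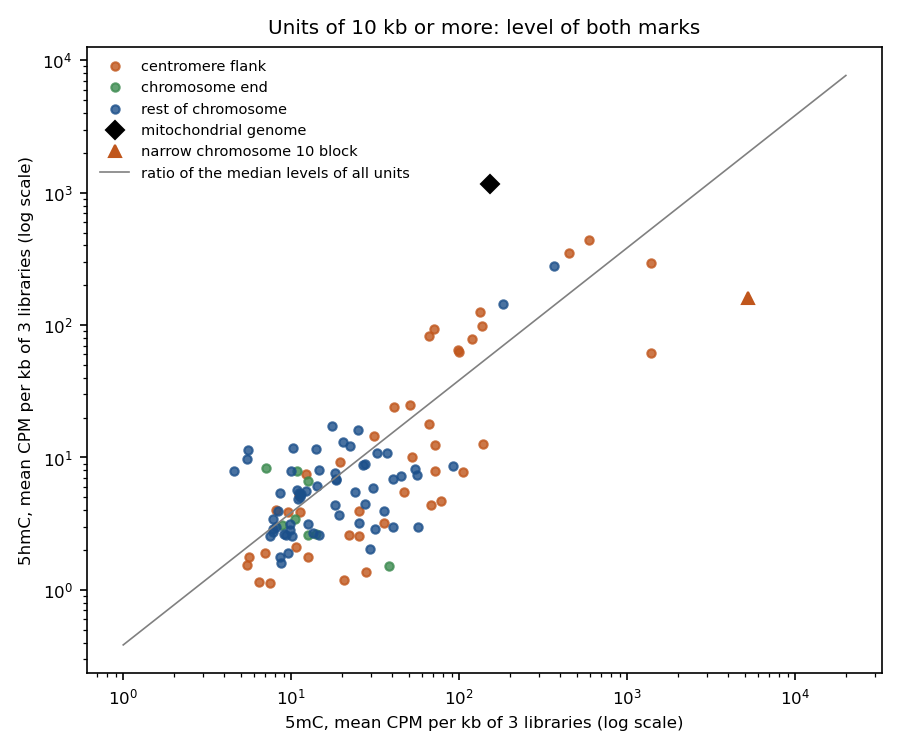
Mean CPM per kb of 5hmC (y axis, log scale) against 5mC (x axis, log scale) over 3 libraries per mark for 111 units of 10 kb or more, leaving out those of chromosome Y, with the mitochondrial genome and the chromosome 10 block of 5.8 kb added. The grey line is the ratio of the median levels of all units; the chromosome 16 block (-3.07 on the log2 scale) and the added chromosome 10 block (-3.66) lie below it and the mitochondrial genome (4.39) above it.

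Mitochondrial DNA had a higher ratio than the median of any nuclear class, though single nuclear units reached 4.50. Its single unit of 16.4 kb held 15700, 21900 and 20200 CPM of 5hmC against 2140, 2770 and 2560 CPM of 5mC. By this file scaling, which sets the order of the marks, the 5hmC libraries did not overlap the 5mC libraries. The log2 ratio was 4.39 (SE 0.0855, adjusted p = 1.89e-112 in edgeR's quasi-likelihood fit). Mitochondrial copies per cell are not known from these tables, and their part in the level of either mark was not tested.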

How the data were processed

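Per the labels' protocols, DNA of each replicate was sheared and end-repaired, then split in parts for both antibodies, each ligated to its own adapters before capture, so replicate numbers pair the libraries. The submitters' processing notes name edgeR 2.11, SICER 1.1, BWA, bedtools 2.17.0 and SAMtools 0.1.18, and the build GRCh37 (hg19), without roles. The authors deposited raw counts per region and library, and an edgeR log2 fold change, p-value and adjusted p-value between the states per region; distances to genes, gene starts and CpG islands are given per the file headers. The authors' deposited log2 fold change has the sign undifferentiated over differentiated.

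Of 327949 listed 5hmC regions, 18 without counts were left out. Units and classes were built in Python 3.11.15, and tests were made in R 4.3.3 with edgeR 4.0.16 (filterByExpr, TMM over units or genes, quasi-likelihood F test, Benjamini-Hochberg, threshold 0.05, n = 3 libraries per mark) after being tested on simulated data. A field naming several genes counted for each; spreadsheet dates in place of symbols (508 and 82 regions) were not matched. SE is the fitted log2 ratio over the root of its F value. Regions that only 1 mark listed are outside the comparison. Over units, deviations of same-numbered libraries from their mark's mean correlated at 0.00701, -0.0177 and -0.000224, so the pairing rests on the labels; the block is an alternative.

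Genes named were the 10 highest and 10 lowest ratios with an adjusted p under 0.05, at least 600 counts and the same direction in 3 replicates, up to 4 called members per list with the largest absolute ratio, the 3 highest and lowest island and flank units, and MYC, TET and DNMT genes; others are said to be chosen after values were seen. A few genes that these rules select are not reported here. The members, lists and rules were chosen with earlier results of these data known. Alternatives were other scalings, DESeq2 1.42.0, pairing rules, filters, pseudocounts, covered length and leaving out each library. Counting error and the spread of 3 replicates limit the precision; the median unit held 39 to 85 counts per 5hmC library and 42 to 46 per 5mC library.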

Additional observations from a re-analysis of the deposited data

How the results depend on the processing

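The zero of the ratio depends on the scaling. With file totals in place of TMM, 2853 units were higher and 38613 lower, and 491 genes higher and 9701 lower, with a median over genes of -1.50; with totals over paired units, 9178 units were higher and 17068 lower. With 5mC regions of a deposited adjusted p-value under 0.01 the counts were 4376 and 4476 units and 1657 and 1594 genes, and with covered lengths within 1.25 times 4453 and 4707 units and 1623 and 1663 genes, where fewer were tested. DESeq2 gave 9994 and 10519 units and 2845 and 2967 genes. The replicate block, which pairs both libraries of 1 DNA sample, gave 12544 and 12862 units and 3513 and 3375 genes and moved no count by over 1.5 times. Leaving out 1 library gave 11411 to 12080 units higher and 11792 to 12561 lower, and 3217 to 3397 genes higher and 3128 to 3361 lower.

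The island difference was -0.611 with a pseudocount of 1 CPM, -0.07 per kb, -0.555 with 1 region per mark, -0.729 under the stricter 5mC limit, and -0.599 to -0.562 with 1 library left out. Per kb the shore, promoter and intergenic differences were -0.111, -0.044 and 0.064, the centromere-flank difference turned to -0.081 and the chromosome-end difference to 0.032. Under the stricter 5mC limit the shore, intergenic and flank differences were -0.103, 0.131 and -0.099. With a pseudocount of 1 CPM the intergenic and flank differences were 0.107 and -0.01, and with 1 region per mark the flank difference was 0.042. Leaving out 1 library gave intergenic differences of 0.117 to 0.123. The next settings were added after seeing the data. With like covered lengths the island, promoter, intergenic, flank and end differences were -0.217, -0.101, 0.091, -0.002 and 0.01. In units with more 5mC in undifferentiated cells the island, promoter, intergenic and flank differences were -0.306, -0.103, 0.073 and 0.112, and in units with less 5mC the island, shore, promoter, intergenic, flank and end differences were -0.894, -0.255, -0.283, 0.377, -0.309 and -0.245. The cause was not tested.

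Over 116 named genes and units, 1634 of 1674 alternative values kept their direction and call, 14 lost the call, 8 gained one and 18 turned. Ratios per kb were not among these alternatives, and per kb some of the genes stood near 0 or across it, as given above. A gene absent under a setting was not counted. For single units the other pairing rules, the stricter 5mC limit and like covered lengths were not computed. With file totals the genes whose ratio turned included ADARB2 (-0.002), DNMT1 (-0.73), HORMAD1 (-0.63), KIT (-0.17), MLST8 (-0.44), MXI1 (-0.92), NFE2 (-0.85), PCNA (-0.91), RUNX1 (-0.88), SLC4A1 (-0.42), TBX21 (-0.10), TET1 (-0.89), TET2 (-1.50) and TFRC (-0.73). With 1 region per mark DNMT3A (0.41) and SENP5 (0.10) turned; SENP5 then no longer held its strongest unit. Depth limits weak units, where the median unit held 39 counts in 5hmC replicate 3.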
